A study of Mus musculus with 12 samples.

Results

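The metallothionein and zinc response genes described here were Mt1, Mt2, Mt3, Mtf1 and Slc30a1, 5 genes of the 55573 in the count table. They were taken by name, as the rows whose Ensembl identifier carries these symbols on the GRCm38 mouse genome. The series holds 12 RNA-seq libraries from C57BL/6 mice, made from the EDL, or extensor digitorum longus, a muscle of fast fibers in the hindlimb: 3 from single myofibers, 3 from pools of 5 myofibers, 3 from pools of 20 myofibers and 3 from whole muscle. By the labels' protocol, RNA of single myofibers came from lysis in kit buffer in the tube and that of whole muscle from Trizol extraction, and every library was made with the SMART-Seq HT kit, a full-length cDNA method for very small RNA inputs. Lysis and extraction changed together with the fiber and whole muscle groups, so the part each had in a difference cannot be told apart. The labels give no treatment and no animal age, and do not say whether libraries came from separate animals, so p-values measure only the spread between these libraries.

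Metallothioneins are small cysteine-rich proteins that bind zinc and copper and buffer the free metal in the cell. Their transcription is raised by the zinc-sensing factor MTF1, which binds short metal response elements in the promoters of Mt1, Mt2 and Slc30a1, and also by glucocorticoids and oxidative stress. Slc30a1 encodes ZnT1, the transporter that exports zinc across the plasma membrane, and Mt3 encodes a metallothionein best known from brain.

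Mt1 (ENSMUSG00000031765), Mt2 (ENSMUSG00000031762) and Mt3 (ENSMUSG00000031760) lay in a row on chromosome 8 with Mt4, a metallothionein of stratified epithelia. On the plus strand the order was Mt4, Mt3, Mt2, Mt1, within 43.1 kb, and Mt2 ended 5.51 kb before Mt1 began. In GENCODE vM21 the gene spans on GRCm38 were chr8:94179082-94180327 for Mt1, chr8:94172664-94173568 for Mt2 and chr8:94152607-94154146 for Mt3. Mtf1 (ENSMUSG00000028890) spanned chr4:124802104-124849800 and Slc30a1 (ENSMUSG00000037434) chr1:191906767-191913247, both on the plus strand.

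The promoter windows of the 3 genes known as MTF1 targets are shown because their metal response elements are the feature that ties them to zinc. Each window, from RefSeq on GRCm38.p6, covers 300 bases up to 50 bases past the start site and is written 5′ to 3′ on the plus strand. Capitals mark matches to the metal response element core, TGCACNC or TGCGCNC, searched on both strands; a match on the minus strand reads as its reverse complement. The windows were chr8:94178839-94179138 for Mt1, chr8:94172368-94172667 for Mt2 and chr1:191906531-191906830 for Slc30a1.
Mt1: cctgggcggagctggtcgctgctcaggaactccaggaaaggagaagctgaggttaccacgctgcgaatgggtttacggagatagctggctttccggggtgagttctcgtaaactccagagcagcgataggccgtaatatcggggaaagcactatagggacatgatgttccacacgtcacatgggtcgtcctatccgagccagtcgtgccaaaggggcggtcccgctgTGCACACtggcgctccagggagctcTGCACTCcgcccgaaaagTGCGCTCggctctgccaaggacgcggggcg
Mt2: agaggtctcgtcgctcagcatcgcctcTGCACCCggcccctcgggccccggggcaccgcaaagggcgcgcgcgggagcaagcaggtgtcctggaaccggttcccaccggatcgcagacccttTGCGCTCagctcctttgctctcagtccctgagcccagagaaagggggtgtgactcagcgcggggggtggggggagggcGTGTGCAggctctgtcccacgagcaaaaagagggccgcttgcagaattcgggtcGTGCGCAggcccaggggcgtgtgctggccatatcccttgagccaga
Slc30a1: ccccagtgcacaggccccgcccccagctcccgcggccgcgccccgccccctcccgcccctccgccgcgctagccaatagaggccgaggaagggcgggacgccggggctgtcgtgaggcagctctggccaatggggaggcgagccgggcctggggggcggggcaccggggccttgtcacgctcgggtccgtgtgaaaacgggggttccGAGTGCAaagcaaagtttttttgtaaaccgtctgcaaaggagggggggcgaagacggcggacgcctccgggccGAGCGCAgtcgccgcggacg
The Mt1 window held 3 matches, beginning at bases -23, 3 and 21 from the start site. The Mt2 window held 4, beginning at -223, -128, -50 and 5, and the Slc30a1 window held 2, beginning at -43 and 31. The Mt3 window held 1 match and the Mtf1 window held 0 matches. Of all 32851 promoter windows of this length, 25.7% held at least 1 match, 1.97% held at least 3 and 0.517% held at least 4. An antioxidant response element, TGACNNNGC on either strand, was found once in the Mt2 window and once in the Slc30a1 window, and in 12.4% of all windows. The first annotated Mt2 transcript in GENCODE begins 46 bases after the start site of the Mt2 window, so positions in that window hold for the RefSeq start. Annotated Mt1 transcripts begin at -7, 122 and 152 bases from the start site of the Mt1 window. That window ends 50 bases past its start site, so the bases just before the later Mt1 starts were not searched for either element. A match describes these letters and does not show that a factor was bound.

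Libraries held 4702823 to 27787120 counted reads. All 5 libraries with reads on over 50% of 1506 sensory receptor genes (olfactory, vomeronasal and taste), which are not known as muscle transcripts, were fiber pools: 2 of the pools of 5 and all 3 pools of 20. Read densities below are set against the 99th percentile of these receptor genes as a measure of background. Fast fiber markers summed to between 134320 and 244150 CPM in single fibers, 44645 to 245050 CPM in pools of 5, 13134 to 81148 CPM in pools of 20 and 56779 to 76685 CPM in whole muscle, and 0 of 5 were called different between isolated fibers and whole muscle. CPM are counts per 1000000 reads of the library total after TMM scaling (trimmed mean of M-values).

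Over all annotated exon bases, Mt1 had the highest level of the 5 genes per kilobase in every library, and it rose in isolated fibers. Its order against Mt2 is uncertain, because 432 of the 588 Mt2 exon bases overlap another gene, as described below. Mt1 had 4187, 3090 and 2072 CPM in the single fibers, 1053, 439 and 2167 CPM in the pools of 5, 308, 50.3 and 409 CPM in the pools of 20, and 19.2, 30.4 and 39.5 CPM in whole muscle. Every fiber library lay above every whole muscle library, and 20-fiber pool 2 lay closest to them. By CPM per kilobase of exon Mt1 ranked 28 to 36 among 21980 protein-coding genes in single fibers, 45 to 81 in pools of 5, 75 to 106 in pools of 20 and 879 to 1500 in whole muscle. Its log2 fold change in isolated fibers over whole muscle, the mean of the 3 fiber groups against whole muscle, was 5.06 ± 0.97 (SE; adjusted p = 0.00229 by edgeR's quasi-likelihood test with Benjamini-Hochberg adjustment, 9 fiber and 3 whole muscle libraries).

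Mt2 also rose in isolated fibers, and its level in whole muscle was about 1 CPM. Mt2 had 509, 128 and 338 CPM in the single fibers, 202, 104 and 83.8 CPM in the pools of 5, 31.6, 9.05 and 47.3 CPM in the pools of 20, and 0.924, 0.887 and 1.04 CPM in whole muscle. The whole muscle values rested on 12, 25 and 31 reads. The lowest fiber library was again 20-fiber pool 2, and no fiber library came near the whole muscle range. The log2 fold change in isolated fibers over whole muscle was 6.81 ± 0.82 (SE; adjusted p = 3.66e-05, higher in 9 of 9 fiber libraries). Mt1 and Mt2 had read densities above the background level in all 12 libraries.

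The Mt2 level carries a limit of annotation. The antisense gene Gm45774 overlaps 432 of the 588 exon bases of Mt2, and whether the reads were counted by strand is not given in the sources used here, so reads of Mt2 and Gm45774 cannot be told apart and the level of Mt2 relative to Mt1 is uncertain. Gm45774 itself had 37, 68 and 49 reads in the single fibers, 36, 4 and 27 reads in the pools of 5, 25, 17 and 74 reads in the pools of 20, and 3, 1 and 1 reads in whole muscle. Those counts were below the Mt2 counts of the fiber libraries, which ran from 120 to 6133 reads. They cannot show how many Mt2 reads were lost, because reads on the shared bases may have been counted for neither gene.

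Slc30a1, the zinc exporter gene controlled by MTF1, was also called higher in isolated fibers. Slc30a1 had 7.38, 3.48 and 8.15 CPM in the single fibers, 16.6, 14.7 and 8.44 CPM in the pools of 5, 9.17, 4.15 and 10.5 CPM in the pools of 20, and 3.46, 3.87 and 2.69 CPM in whole muscle. Single fiber 2 lay inside the whole muscle range, and 8 of 9 fiber libraries lay above it. The log2 fold change was 1.39 ± 0.46 (SE; adjusted p = 0.0480, edgeR), and the call was lost when any of 9 of the 12 libraries was left out, with adjusted p between 0.0286 and 0.252 over the 12 refits. Without the 5 libraries with reads on over 50% of receptor genes the log2 fold change was 0.96 and not called. The antisense gene 1700034H15Rik overlaps 468 of the 5244 exon bases of Slc30a1.

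Mtf1, the zinc-sensing transcription factor itself, varied little among these libraries. Mtf1 had 6.47, 9.29 and 6.82 CPM in the single fibers, 12.2, 7.98 and 6.48 CPM in the pools of 5, 6.34, 8.22 and 7.99 CPM in the pools of 20, and 8.16, 9.83 and 10.4 CPM in whole muscle. The groups overlapped, and of the fiber libraries only 5-fiber pool 1 lay above every whole muscle library. The log2 fold change in isolated fibers over whole muscle was -0.25 ± 0.36 (SE; adjusted p = 0.715, edgeR), and with upper-quartile scaling it was 0.05. In 20-fiber pools 1 and 2 the density of Mtf1 reads lay below the background level, as did that of Slc30a1 in 20-fiber pool 2. The gene 1110065P20Rik, on the minus strand, overlaps 721 of the 8907 exon bases of Mtf1.

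Mt3 was far higher in single fibers 1 and 3 than in the other 10 libraries. Mt3 had 71.2, 2.52 and 85.9 CPM in the single fibers, 6.67, 1.76 and 2.49 CPM in the pools of 5, 1.92, 0.0754 and 0.658 CPM in the pools of 20, and 1.00, 1.85 and 2.08 CPM in whole muscle. The high libraries held 858 and 970 reads, whereas single fiber 2 held 39 and 20-fiber pool 2 held 1. In 20-fiber pools 2 and 3 the density of Mt3 reads was below the background level. The log2 fold change in isolated fibers over whole muscle was 1.71 ± 0.80 (SE; adjusted p = 0.142, edgeR), with 5 of 9 fiber libraries above all of whole muscle; without single fiber 2 it was called.

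**Figure D1:**
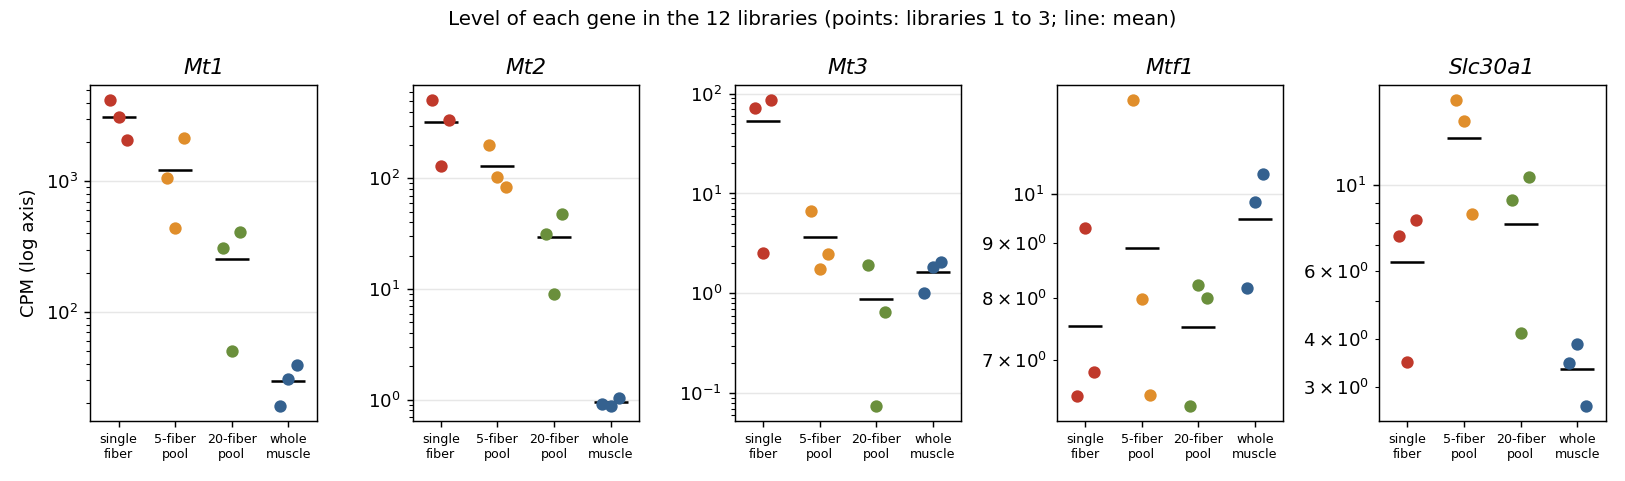
CPM of the 5 genes (log axes, a separate scale per gene) in single fibers, pools of 5, pools of 20 and whole muscle; points are libraries and lines are group means (n = 3). Mt1 and Mt2 sit above whole muscle in all 9 fiber libraries, Mt3 is high in 2 single fibers, and Mtf1 stays between 6.34 and 12.2 CPM.

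Of the 5 genes, 3 were called higher in isolated fibers than in whole muscle and 0 lower, against 7.46% of 22110 genes tested called higher and 7.78% called lower. All fiber libraries lay above all whole muscle libraries for 2 of the 5, against 3.22% of genes tested. The median log2 fold change of all genes tested was 0.40 and moved from -0.30 without scaling factors to 0.69 with upper-quartile factors; under these 2 settings the log2 fold change was 4.22 and 5.28 for Mt1 and 6.01 and 7.05 for Mt2. The share of genes called rested on single libraries: the 1650 genes called higher became 303 without whole muscle library 2 and 4272 without 5-fiber pool 3.

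Whole muscle holds cells other than fibers, and markers of those cells moved with the comparison. Endothelial markers, 5 of 5 lower in isolated fibers, summed to 0.886 to 0.913 CPM in single fibers, 61.1 to 406 CPM in pools of 5, 36.6 to 380 CPM in pools of 20 and 728 to 871 CPM in whole muscle. Fibroblast markers (5 of 5 lower) summed to 7.03 to 156 CPM in single fibers and 2613 to 2859 CPM in whole muscle, and adipocyte markers (4 of 4 lower) to 0 to 0.581 CPM in single fibers and 779 to 977 CPM in whole muscle. Macrophage markers (4 of 5 lower) summed to 18.3 to 35.2 CPM in single fibers and 380 to 405 CPM in whole muscle, and Schwann cell markers (4 of 5 lower) to 0.452 to 2.30 CPM in single fibers and 98.9 to 154 CPM in whole muscle; S100b and the adipocyte marker Lep were at 0 in single fibers. Satellite cell markers summed to 63.1 to 171 CPM in single fibers and 21.5 to 27.8 CPM in whole muscle, and 0 of 4 were called. Fewer cells of a type and less RNA per cell cannot be told apart here, and the part of this shift in the metallothionein values was not tested.

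Taken by group, Mt1 and Mt2 were called higher than in whole muscle in each kind of fiber library. In single fibers Mt1 averaged 3116 ± 1058 CPM, against 29.7 ± 10.2 CPM in whole muscle (SD, n = 3 each), which on the log2 scale is a fold change of 6.66 ± 0.45 (SE; adjusted p = 2.83e-04, edgeR). In pools of 5 the log2 fold change of Mt1 was 5.26 ± 0.70 (adjusted p = 0.0105) and in pools of 20 it was 3.36 ± 0.74 (adjusted p = 0.00174, edgeR). Those of Mt2 were 8.38 ± 0.65 in single fibers (adjusted p = 4.03e-04), 7.01 ± 0.51 in pools of 5 (adjusted p = 0.00249) and 5.21 ± 0.51 in pools of 20 (adjusted p = 1.68e-05, edgeR). These comparisons share the same 3 whole muscle libraries. For Mt1 in pools of 5 the call was lost without any one of the whole muscle libraries (adjusted p up to 0.102), and for Mt2 without whole muscle library 1 (adjusted p = 0.0527).

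Mt3 passed the test in single fibers and in neither kind of pool. Its log2 fold change over whole muscle was 5.01 ± 1.15 in single fibers (SE; adjusted p = 0.0143), 1.07 ± 0.63 in pools of 5 (adjusted p = 0.317) and -0.69 ± 0.89 in pools of 20 (adjusted p = 0.557, edgeR). The single fiber call was lost without any one of the whole muscle libraries (adjusted p up to 0.0751). For Slc30a1 the values were 0.91 ± 0.48 in single fibers (adjusted p = 0.179), 1.93 ± 0.39 in pools of 5 (adjusted p = 0.0290) and 1.56 ± 0.40 in pools of 20 (adjusted p = 0.00512, edgeR). Its call in pools of 5 was lost on leaving out any library but 5-fiber pool 3. The 5-fiber pools 1 and 2, which had the highest Slc30a1 levels, held 38.3% and 34.2% mitochondrial rRNA reads, against 2.39% in 5-fiber pool 3 and 2.34% to 2.76% in whole muscle; the part of this in the Slc30a1 values was not tested. Mtf1 was not called in any of the 3, with log2 fold changes of -0.38 ± 0.31, -0.16 ± 0.35 and 0.05 ± 0.33 in single fibers, pools of 5 and pools of 20, the last 2 of which changed sign under other settings. Without scaling factors, where the median log2 fold change of all genes was -1.20 in both comparisons, Mtf1 was called lower in single fibers (-1.45; adjusted p = 0.00933) and in pools of 5 (-1.36; adjusted p = 0.0172, edgeR). In each of the 3 comparisons 3 of the 5 genes were called higher, against 13.9% of genes tested in single fibers, 4.63% in pools of 5 and 30.3% in pools of 20. In pools of 5 the 684 genes behind that share became 2 without whole muscle library 1 and 4132 without 5-fiber pool 3.

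**Figure D2:**
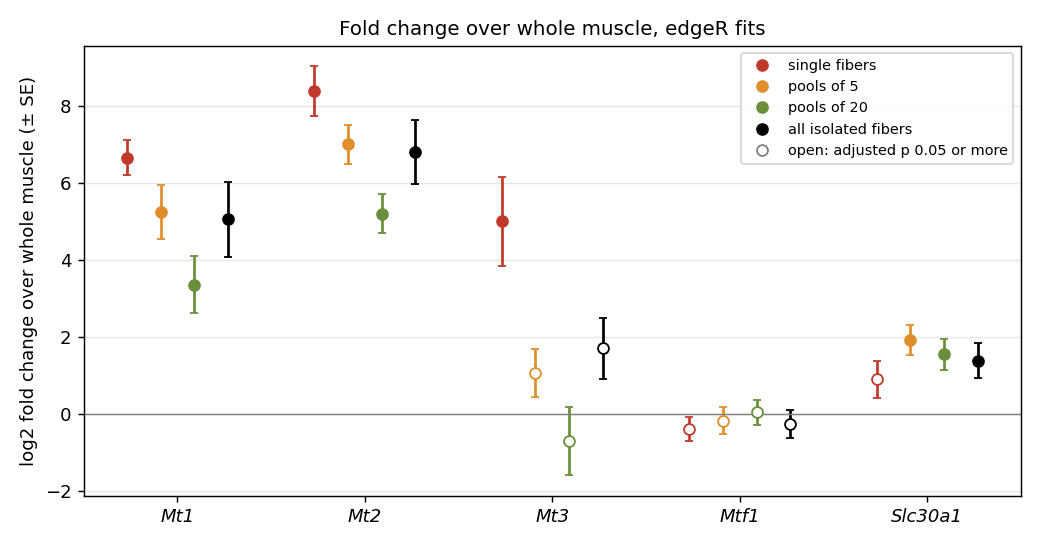
Log2 fold change over whole muscle with its standard error for the 5 genes, in single fibers, pools of 5, pools of 20 and all isolated fibers; open points did not pass adjusted p under 0.05. For Mt1 and Mt2 the single fibers stand at 6.66 and 8.38 and the pools of 20 at 3.36 and 5.21, while Mtf1 stays near 0.

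Among fiber libraries, the metallothioneins were higher in single fibers than in pools of 20. Mt1 averaged 3116 ± 1058 CPM in single fibers, against 256 ± 185 CPM in pools of 20 (SD, n = 3 each), and the log2 fold change was 3.31 ± 0.96 (SE; adjusted p = 0.0163, edgeR). Mt2 averaged 325 ± 191 CPM in single fibers, against 29.3 ± 19.2 CPM in pools of 20, and its log2 fold change was 3.17 ± 0.70 (SE; adjusted p = 0.00727), and that of Mt3 was 5.73 ± 1.09 (SE; adjusted p = 0.00649, edgeR). For all 3 genes each single fiber lay above each pool of 20. Across all 16978 genes tested the median log2 fold change was -0.74, and 8.52% were called higher. The Mt1 call was lost in 5 of the 6 refits that left out a library (adjusted p 0.0252 to 0.0913), and with the replicate number as a block 0 of the 5 genes were called. All 3 pools of 20 had reads on over 50% of receptor genes and no single fiber did; the part of this in the difference was not tested.

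In mean level of Mt1, Mt2 and Mt3 the pools of 5 lay between single fibers and pools of 20. Single fibers against pools of 5 gave log2 fold changes of 1.39 ± 0.64 for Mt1, 1.29 ± 0.64 for Mt2 and 3.88 ± 1.15 for Mt3 (SE; adjusted p = 0.585, 0.610 and 0.342, edgeR). Mt3 was called higher there by DESeq2 (adjusted p = 0.0101), by edgeR without a filter (adjusted p = 6.53e-07) and with the spread of all 12 libraries (adjusted p = 0.0323), among adjusted p up to 0.788 over the 7 other settings. The groups overlapped for these genes, and 0% of 12700 genes tested were called higher and 2 genes lower, with 1132 genes at an unadjusted p under 0.05 and 28 higher and 395 lower by DESeq2. In scaled CPM Slc30a1 was lower in all 3 single fibers than in any pool of 5. Without scaling factors single fiber 3 lay above 5-fiber pool 3 (7.25 against 5.22 CPM). The Slc30a1 log2 fold change of -1.10 ± 0.57 was not called (SE; adjusted p = 0.630, edgeR). Pools of 5 against pools of 20 gave 2.20 ± 1.02 for Mt1 and 2.09 ± 0.72 for Mt2, not called (SE; adjusted p = 0.530 for both, edgeR). In scaled CPM these groups did not overlap for either gene, but without scaling factors they did for both. Unscaled Mt1 in 5-fiber pools 1 and 2 lay below 20-fiber pool 3 (552 and 326 against 567 CPM). Unscaled Mt2 in 5-fiber pool 3 also lay below 20-fiber pool 3 (51.8 against 65.6 CPM). The share of all genes without overlap was not counted. In that comparison 0% of 17113 genes tested were called higher and 0 lower, with 1502 genes at an unadjusted p under 0.05 and 77 higher and 102 lower by DESeq2. Mtf1 did not pass the test in any comparison among fibers, and Slc30a1 did not either.

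Levels also varied between libraries of the same group. Mt1 spanned 2.02-fold in single fibers, 4.94-fold in pools of 5, 8.14-fold in pools of 20 and 2.06-fold in whole muscle. Mt2 spanned only 1.17-fold in whole muscle and 3.96-fold in single fibers. Mt3 spanned 34.1-fold in single fibers, the widest range of these genes in that group. Over all annotated exon bases, Mt1 averaged 2501 CPM per kb in single fibers, 979 in pools of 5, 205 in pools of 20 and 23.8 in whole muscle. Mt2 averaged 553, 221, 49.9 and 1.62 CPM per kb in that order of groups, with the limit of its overlap with Gm45774. Of Slc30a1 and Mtf1, whose averages ran from 0.637 to 2.53 CPM per kb, Mtf1 had the higher average in whole muscle and the lower in each fiber group. Single libraries differed: Mtf1 was the higher in single fiber 2 (1.04 against 0.665 CPM per kb) and in 20-fiber pool 2 (0.923 against 0.791).

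The share of Mt2 among Mt1 and Mt2 reads does not depend on scaling between libraries, but it carries the limit of the overlap with Gm45774. It was 10.8%, 3.99% and 14.0% in the single fibers, 16.1%, 19.1% and 3.72% in the pools of 5, 9.29%, 15.2% and 10.4% in the pools of 20, against 4.60%, 2.83% and 2.57% in whole muscle. Of the 9 fiber libraries 7 lay above the whole muscle range, and single fiber 2 and 5-fiber pool 3 lay inside it. These were also the 2 fiber libraries whose share of receptor genes with a read fell within the whole muscle range. Exact 95% Clopper-Pearson intervals, which cover counting error only, ran from 3.82% to 4.17% in single fiber 2 and from 2.40% to 7.89% in whole muscle library 1. The share of Mt3 among Mt1 and Mt3 reads was 1.67%, 0.0814% and 3.98% in the single fibers, 0.629%, 0.398% and 0.115% in the pools of 5, 0.620%, 0.150% and 0.161% in the pools of 20, against 4.96%, 5.72% and 5.01% in whole muscle. All 9 fiber libraries lay below whole muscle in this share, single fiber 3 nearest to it.

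**Figure D3:**
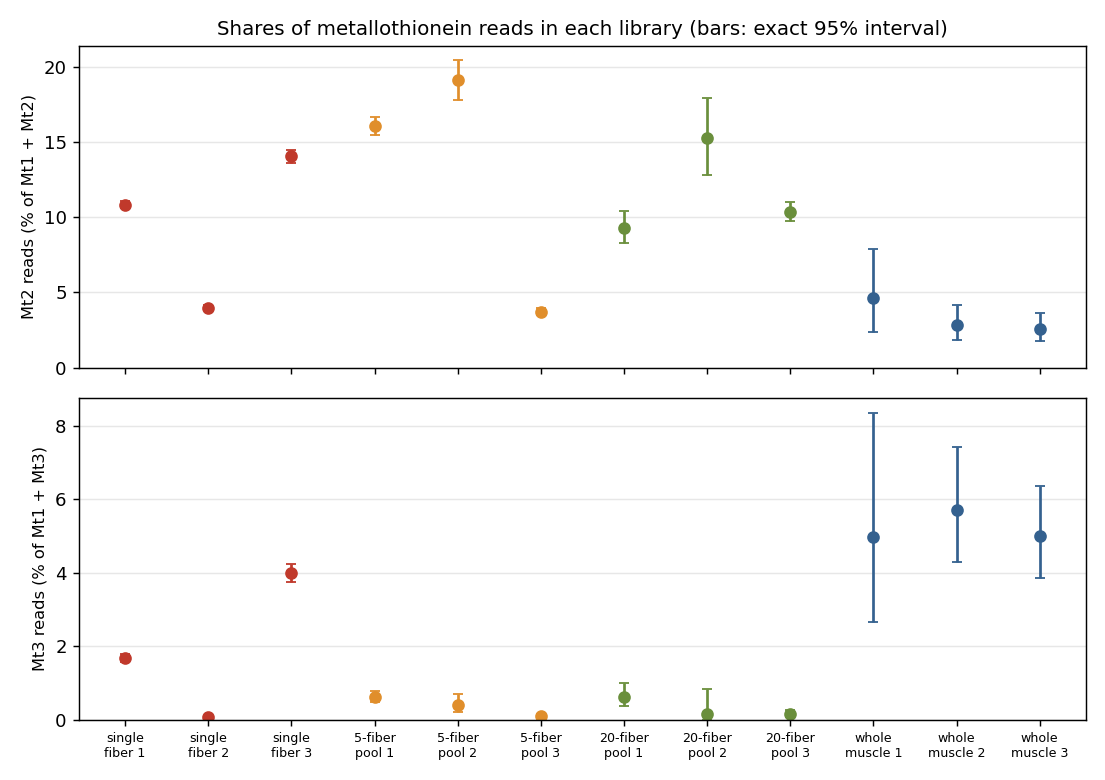
Mt2 reads as a percent of Mt1 plus Mt2 reads (top) and Mt3 reads as a percent of Mt1 plus Mt3 reads (bottom) in each library, with exact 95% intervals. The Mt2 share of single fiber 2 and 5-fiber pool 3, at 3.99% and 3.72%, sits in the whole muscle range of 2.57% to 4.60%.

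Mt4, next to Mt3 in the cluster, was high in the same 2 single fibers as Mt3. It had 103, 0 and 123 reads in the single fibers, 3, 0 and 2 reads in the pools of 5, 1, 8 and 1 reads in the pools of 20, and 0, 0 and 1 reads in whole muscle. With 1 read in whole muscle, its pooled ratio of isolated fibers over whole muscle was 149, with a counting interval from 26.5 to 5912. The other genes within 100 kb of the cluster, a set added after the data were seen, were not called: the log2 fold change was 0.60 ± 0.37 for Ogfod1 (adjusted p = 0.274), 0.48 ± 0.56 for Bbs2 (adjusted p = 0.627) and -0.68 ± 0.41 for Nup93 (SE; adjusted p = 0.266, edgeR).

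Other zinc transporters gave a mixed picture. In isolated fibers, where 7.46% of all genes tested were called higher and 7.78% lower, 8 of the 9 zinc exporter genes besides Slc30a1 were tested, 0 were higher and 1 was lower, with a median log2 fold change of -0.40 beside 0.40 for all genes. Slc30a2, which loads zinc into vesicles, fell by 1.93 on the log2 scale (SE 0.63; adjusted p = 0.0464, edgeR). The most abundant were Slc30a9, at 63.0 ± 28.1 CPM in isolated fibers and 74.2 ± 0.0271 CPM in whole muscle, Slc30a4 and Slc30a5, with log2 fold changes of -0.30, -0.73 and -0.51, not called. Of 14 zinc importers 4 were higher and 1 lower, beside the same shares, with a median of 0.32 against 0.40 for all genes. Of the 4, Slc39a8 lay at or below background in both kinds of pool and in whole muscle. Slc39a1, a plasma membrane importer, had 38.7, 19.6 and 40.2 CPM in the single fibers, 36.2, 26.3 and 23.2 CPM in the pools of 5, 27.5, 5.58 and 29.5 CPM in the pools of 20, and 6.62, 6.57 and 7.39 CPM in whole muscle. Of the fiber libraries only 20-fiber pool 2 did not lie above whole muscle, and the log2 fold change was 1.97 ± 0.50 (SE; adjusted p = 0.0152, edgeR). Slc39a2 and Slc39a5 had 1 read each in whole muscle and averaged 1.80 and 1.46 CPM in isolated fibers. Their pooled ratios were 116 (counting interval 20.6 to 4617) and 94.0 (16.6 to 3738). Slc39a2 had 28 reads in single fibers, 14 in pools of 5 and 146 in pools of 20. Slc39a5 had 22, 45 and 85 reads in that order. The pools of 20 had reads on 78.7% to 97.3% of receptor genes, and the part of this background in the ratios was not tested. Slc39a2 lay at or below background in the pools of 5, and both genes did in whole muscle. Slc39a13, at -0.58, and Slc39a3, at -1.01, were the other abundant importers and were not called. By group, higher than in whole muscle were 0 of 6 exporters and 2 of 11 importers tested in single fibers, beside 13.9% of all genes. The counts were 0 of 6 and 1 of 11 in pools of 5, beside 4.63%, and 1 of 7 and 6 of 14 in pools of 20, beside 30.3%. Of those called in pools of 20, the importers Slc39a4 and Slc39a8 and the exporter Slc30a10 lay at or below background there.

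Among 17 copper and iron handling genes, 16 were tested, 1 was higher and 2 were lower, beside 7.46% and 7.78% of all genes, with a median log2 fold change of -0.02 against 0.40 for all genes. Hmox1, the heme-degrading enzyme induced by heme and oxidative stress, had 200.05, 107 and 255 CPM in the single fibers, 78.6, 24.6 and 114 CPM in the pools of 5, 17.1, 5.28 and 17.3 CPM in the pools of 20, and 5.93, 7.95 and 7.12 CPM in whole muscle. Its 2 highest libraries were single fibers, and 20-fiber pool 2 lay below whole muscle; the log2 fold change was 3.01 ± 0.61 (SE; adjusted p = 0.00325, edgeR). The copper transporter gene Slc31a2 fell by 2.23 (SE 0.41; adjusted p = 0.00163) and the iron exporter Slc40a1, ferroportin, by 1.68 (SE 0.47; adjusted p = 0.0239, edgeR) on the log2 scale. The ferritin chains Fth1 and Ftl1 and the transferrin receptor Tfrc, the most abundant of the list, had log2 fold changes of 0.76 ± 0.87, 0.92 ± 0.79 and -0.37 ± 0.52 (SE), not called. In single fibers alone 5 of 15 genes were higher than in whole muscle, beside 13.9% of all genes, and Slc31a2 was lower, with Fth1 at 1.61 (adjusted p = 0.00533) and Ftl1 at 2.26 (adjusted p = 0.00247, edgeR), and in pools of 20 these 2 stood at -0.24 and -1.20, not called.

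Of 11 glucocorticoid-responsive genes, 2 were higher and 1 lower in isolated fibers, beside 7.46% and 7.78% of all genes, with a median log2 fold change of -0.02 against 0.40 for all genes. Per1, a clock gene that glucocorticoids induce, had 56.7, 14.6 and 76.4 CPM in the single fibers, 104, 61.8 and 65.7 CPM in the pools of 5, 55.6, 15.3 and 56.5 CPM in the pools of 20, and 1.85, 1.81 and 3.93 CPM in whole muscle. It lay above whole muscle in all 9 fiber libraries; its log2 fold change was 4.42 ± 0.68 (SE; adjusted p = 3.52e-04, edgeR), and its single fibers and pools of 20 overlapped. Errfi1, a feedback inhibitor of the EGF receptor, was the other at 1.70 ± 0.57 (SE; adjusted p = 0.0493), while Klf9, Tsc22d3 and Sgk1, the most abundant of the list, stood at 1.10, -0.17 and -0.50 and were not called. Klf15, a glucocorticoid-induced metabolic regulator, was lower at -1.36 ± 0.39 (SE; adjusted p = 0.0265, edgeR). By group, 4 of 11 were higher than in whole muscle in single fibers, beside 13.9% of all genes. The counts were 3 of 11 in pools of 5, beside 4.63%, and 1 of 11 in pools of 20, beside 30.3%. Lower were 2, 1 and 0 genes, beside 2771 of 14028, 623 of 14764 and 2299 of 16969 tested. Medians were 0.68, 0.77 and 0.02, against -0.12, -0.03 and 0.38 for all genes.

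Of 6 other genes of the metallothionein family or linked to MTF1, 1 was higher (Mt4) and 1 lower, beside 7.46% and 7.78% of all genes, with a median log2 fold change of -0.16 against 0.40 for all genes. Csrp1, a LIM protein of smooth muscle, had 0.581, 0.258 and 0.177 CPM in the single fibers, 6.85, 3.03 and 1.64 CPM in the pools of 5, 1.47, 1.06 and 3.01 CPM in the pools of 20, and 29.3, 25.4 and 30.5 CPM in whole muscle. All fiber libraries lay below whole muscle, and its log2 fold change was -4.39 ± 0.43 (SE; adjusted p = 4.11e-06, edgeR). Selenow, a selenoprotein abundant in muscle, Gclc, the glutamate-cysteine ligase catalytic subunit of glutathione synthesis, and Ndrg1 stood at 0.10, 0.65 and -0.89 and were not called.

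**Figure D4:**
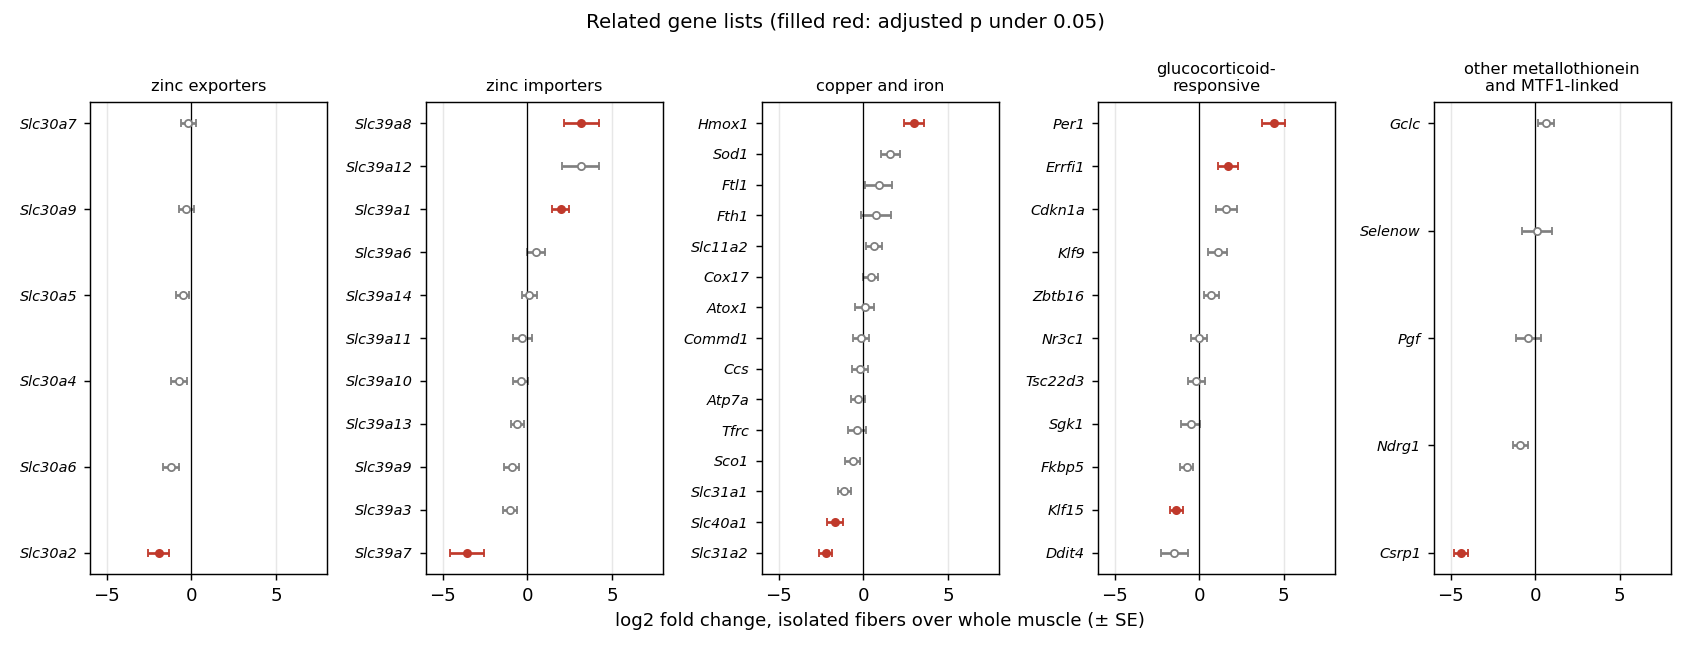
Log2 fold change in isolated fibers over whole muscle with its standard error for the genes of the 5 related lists with more than 3 reads in whole muscle; filled red points passed adjusted p under 0.05 in edgeR. Hmox1 at 3.01 and Per1 at 4.42 stand furthest right in their lists, and Csrp1 at -4.39 stands furthest left.

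The genes closest to each pattern were found among 6177 genes with a mean of at least 10 CPM, as those with the smallest root-mean-square (RMS) difference of log2 CPM after centring on the 12 libraries, leaving out the 5 genes described here. For Mt1 they were Btg2 at 0.50, Otud1 at 0.81, Atf3 at 1.02, Hmox1 at 1.03 and Osgin1 at 1.08, against a median of 2.54 over all genes compared. Btg2, an antiproliferative early response gene, had 1673, 1008 and 1659 CPM in the single fibers, 677, 435 and 1480 CPM in the pools of 5, 236, 44.7 and 268 CPM in the pools of 20, and 22.6, 26.4 and 24.6 CPM in whole muscle. As for Mt1, 5-fiber pool 3 was the highest of the pools and 20-fiber pool 2 the lowest fiber library. For Mt2 the closest were Nr4a3 at 0.74, Egr1 at 0.80, Midn at 0.87, Ankrd1 at 0.90 and Btg2 at 0.93, against a median of 2.96. Nr4a3, an orphan nuclear receptor induced early after stimulation, had 111, 53.2 and 158 CPM in the single fibers, 173, 87.9 and 148 CPM in the pools of 5, 38.2, 9.27 and 31.4 CPM in the pools of 20, and 0.616, 0.461 and 0.571 CPM in whole muscle. The difference between Mt1 and Mt2 themselves was 0.94, so each had genes outside the family closer to it than the other. For Mtf1 the closest were Klhl12 at 0.22, Gpr107 at 0.26 and Dnajb14 at 0.28 (median 0.91), and for Slc30a1 they were Supt6 at 0.28, Epc1 at 0.29 and Prpf4b at 0.33 (median 1.13). These likenesses describe 12 libraries that share their groups, depth and background.

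**Figure D5:**
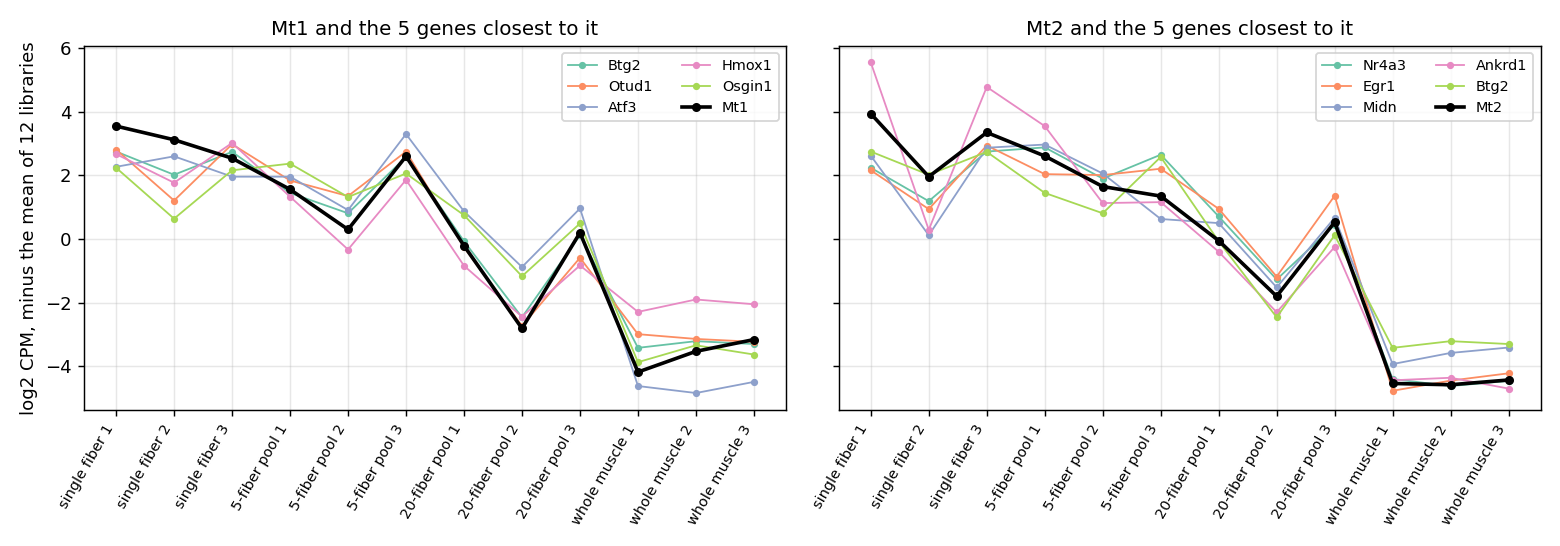
Log2 CPM minus the mean of the 12 libraries for Mt1 (left) and Mt2 (right) in black, with the 5 genes closest to each, other than the 5 genes described here, in colour; libraries run from single fibers to whole muscle, and lines only join the points of a gene. Mt1 and Btg2, at an RMS difference of 0.50, share the steps between groups, with 5-fiber pool 3 high and 20-fiber pool 2 low. They part within single fibers: from single fiber 2 to single fiber 3 Mt1 falls from 3.12 to 2.54 and Btg2 rises from 2.02 to 2.74.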

How the data were processed

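The authors deposited a table of raw counts, whole numbers of reads for each Ensembl gene in 12 libraries, not normalized. Per the submitters' processing notes, HISAT2, SAMtools and featureCounts were used on GRCm38 (mm10); versions, strand setting and annotation release are not given in the sources used here. Of 55573 identifiers, 55480 matched GENCODE vM21, which gave symbols, coordinates and exon lengths. Groups came from the labels.

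Counts were tested in R 4.3.3 with edgeR 4.0.16 (TMM factors, filterByExpr, glmQLFit, glmQLFTest, Benjamini-Hochberg over all genes tested, adjusted p under 0.05, no fold minimum). Isolated fibers were compared with whole muscle in 1 fit of all 12 libraries, averaging the log2 levels of the 3 fiber groups. Pairs of groups were fitted separately, with 6 libraries and their own TMM factors, so a fold change can differ from the ratio of printed CPM. CPM used TMM factors over all 12 libraries. A check for libraries deposited more than once found none. The tests were tried on simulated data. Alternatives were RLE, upper-quartile or no scaling factors, no filter, DESeq2 1.42.0, a replicate block, a spread from all 12 libraries, and leaving out libraries. Those without scaling factors and without single fiber 2 and 5-fiber pool 3 were chosen after seeing the data.

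The 5 genes and the gene lists were chosen with earlier results of these data known. All 5 genes were described in every comparison. From each list the text gives the 3 genes with the highest mean CPM and up to 2 called genes with the largest fold changes, and for likeness the 5 (Mt1, Mt2) or 3 (Mtf1, Slc30a1) closest genes by centred log2 CPM with an offset of 0.5.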

Additional observations from a re-analysis of the deposited data

Results flagged for a closer look

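The difference between single fibers and pools of 20 was larger than the spread between libraries for 3 metallothioneins, by edgeR's test of that difference itself. The log2 fold change of single fibers over pools of 20 was 3.31 for Mt1, 3.17 for Mt2 and 5.73 for Mt3. In scaled CPM 3 of 3 single fibers lay above all pools of 20 in each case. Without scaling, Mt3 in single fiber 2 lay below 20-fiber pool 1. Mt3 read density was below background in 20-fiber pools 2 and 3. The share of all genes separated in this way was not counted. With the replicate number as a block none of the 3 was called, and Mt1 also lost its call without a filter and in 5 of 6 refits that left out a library (adjusted p up to 0.0913). The fold changes of single fibers and of pools of 20 over whole muscle share the same whole muscle libraries, and the difference between them is this same quantity.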

How the results depend on the processing

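Mt1 and Mt2 stayed higher in isolated fibers than in whole muscle under all 9 other settings (log2 fold changes 4.22 to 6.27 and 6.01 to 7.39) and without each library in turn (4.75 to 5.28 and 6.57 to 6.94). Slc30a1 was no longer called with no scaling factors (0.64), no filter (1.25), the replicate block (1.33), 2 groups of 9 and 3 libraries (1.45) or without the libraries with reads on over 50% of receptor genes (0.96), and ran from 1.21 to 1.48 without each library in turn. Mt3 was called without single fiber 2 and 5-fiber pool 3 (1.91) and ran from 1.26 to 1.89 without each library in turn; it was 0.92 without scaling, 0.98 under the replicate block and 3.53 with 2 groups. Mtf1 was 0.05 with upper-quartile factors and -0.94 without scaling, neither called, and ran from -0.46 to -0.23 without each library; without scaling it was called lower in single fibers (-1.45) and in pools of 5 (-1.36). The number of the 5 genes called ran from 2 to 4 in isolated fibers, 2 to 4 in single fibers, 0 to 3 in pools of 5 and 3 in pools of 20 over whole muscle when a library was left out; in pools of 5 it was 0 or 1 without a whole muscle library. In single fibers against pools of 5 it was 1 (Mt3) with no filter, DESeq2 or the spread of all 12 libraries. In single fibers against pools of 20 it was 2 to 3 without a library and 0 under the replicate block (Mt1 3.56, Mt2 3.10, Mt3 5.68), and Mt1 was not called without a filter (3.63). Slc30a1 in pools of 20 over whole muscle was not called with no scaling (1.31), no filter (0.96) or the spread of all libraries (1.25), nor in pools of 5 with no scaling (0.74) or the block (1.88). The labels do not say whether same-numbered libraries came from the same animal. Their 18 correlations ran from -0.40 to 0.46, with 3 over 0.1. With 3 libraries per group, these correlations cannot settle whether the numbers mark a pairing.

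Some small fold changes changed sign. Without scaling factors Slc30a1 was -0.11 in single fibers over whole muscle and -0.57 in pools of 5 over pools of 20, and Mt3 was -0.18 in pools of 5 over whole muscle. Mtf1 was 0.02 with RLE factors and with DESeq2, and 0.14 without 5-fiber pool 3, in pools of 5 over whole muscle. In pools of 20 over whole muscle Mtf1 was -0.76 with no filter, -0.33 with the spread of all libraries, and -0.10, -0.37 and -0.36 (highest 0.15) without 20-fiber pool 1, 20-fiber pool 2 and whole muscle library 1. In single fibers over pools of 20 it was 0.24 with no filter, 0.00 with the spread of all libraries, and 0.12, 0.15 and 0.01 without single fiber 1, single fiber 3 and 20-fiber pool 2, and ran from -0.59 to 0.15 without each library. In pools of 5 over pools of 20 it was -0.03 with RLE factors and DESeq2, -0.34 with upper-quartile factors, -1.38 without scaling and -0.13 without 5-fiber pool 1, and ran from -0.13 to 0.41 without each library. The cause of these changes was not tested.

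Of all genes, those higher in isolated fibers, 1650 as reported, ran from 216 (2 groups) to 4890 (without single fiber 2 and 5-fiber pool 3), with 665 without scaling and 4599 by DESeq2, and genes lower, 1720, from 380 (2 groups) to 4652 (no scaling), with 1136 under upper-quartile factors and 3697 without those libraries; leaving out 1 library gave 303 (whole muscle 2) to 4272 (5-fiber pool 3) higher and 878 to 2999 lower. Genes higher in single fibers than in whole muscle numbered 1945, and 444 without scaling, 1028 under the block and 996 with the spread of all libraries. In pools of 5 the count was 684, and 290 without scaling, 1343 without a filter, 1863 by DESeq2, 128 under the block, and 2 (without whole muscle 1) to 4132 (without 5-fiber pool 3) on leaving out 1 library; genes lower, 623, ran from 5 to 3788, and to 5391 without scaling. In pools of 20 it was 5147, and 20116 without a filter. Genes higher in single fibers than in pools of 20 numbered 1446, and 438 without scaling, 0 under the block and 2206 with the spread of all libraries. Reads on receptor genes in the pools, and 12 to 31 Mt2 reads in whole muscle, limit the precision of low values.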
